A study of Mus musculus with 56 samples.

Results

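The 10 genes described here make, load or switch on the classical MHC class I molecules of the mouse thymic epithelium: *H2-K1*, *H2-D1*, *B2m*, *Tap1*, *Tap2*, *Tapbp*, *Erap1*, *Nlrc5*, *Calr* and *Pdia3*. They were chosen by name and found by their Ensembl identifier among the 50600 genes of the deposited files, and all 10 were present and measured in all 56 samples. The samples were cortical thymic epithelial cells (cTECs, EpCAM+CD45-UEA1-) and medullary thymic epithelial cells (mTECs, EpCAM+CD45-UEA1+), sorted by flow cytometry, with 28 samples of each. All mice were B6.SJL females (B6.SJL-Ptprca Pep3b/BoyJ-CD45.1). NPC are age-matched females that were not pregnant, and all other mice were mated with BALB/cJ males. D-2 is day 18 of gestation, D0 the day of birth, and D1 to D28 the days after birth, when pups had been removed at birth, so that no mother lactated. For each cell type there were 3 samples, each from 1 mouse, at 6 time points (NPC, D-2, D0, D3, D6, D12), and 1 sample at each of the other 10. The 18 samples per cell type from D0 up to D12 make up early regeneration, and the 4 from D16 up to D28 make up late regeneration.

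MHC class I molecules show peptides from inside the cell to CD8+ T cells. The peptides are cut by the proteasome, carried into the endoplasmic reticulum by the TAP transporter, trimmed there and fitted into the groove of a heavy chain paired with beta-2 microglobulin, with the help of a loading complex. In the thymus, cTECs use this display to select developing CD8+ T cells, and mTECs use it to delete those that react to the body's own proteins.

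Each list of markers was higher on average in the cell type of its label, but both lists were present in both cell types. The summed FPKM (a count of fragments scaled for the length of the transcript and the size of the library, so a level per length) of 9 mTEC markers was 10469 to 19853 in mTECs and 3662 to 8124 in cTECs. That of 8 cTEC markers was 1485 to 11378 in cTECs and 790 to 4692 in mTECs, so that this list overlapped between the cell types, with the lowest cTEC values, 1485 to 2504, at D-2. In those D-2 samples of cTECs, the mTEC markers summed higher than the cTEC markers. Markers of blood cells were low but present. The 20 thymocyte markers summed to 50.9 to 735 in cTECs and 47.3 to 164 in mTECs, and the 13 macrophage and dendritic cell markers to 4.48 to 47.9 in cTECs and 23.4 to 239.9 in mTECs. The 7 fibroblast markers summed to 68.6 to 676 in cTECs and 88.7 to 176 in mTECs. On average *Dcn* made up most of these sums, with a mean of 259 FPKM in cTECs and 103 in mTECs. *Col1a1* (1.25 against 7.06), *Pdgfra* (0.18 against 0.86) and *Pdgfrb* (0.28 against 1.97) had the lower mean in cTECs, and the other 4 the higher. The 4 B cell markers reached at most 8.87 in cTECs and 16.8 in mTECs, and the 5 endothelial markers 3.39 and 13.5. In bulk samples, a different number of cells of a type and a different amount of RNA per cell cannot be told apart. Total expected counts were 4561208 to 108547384 per sample (median 17972566). The libraries with the fewest genes were cTEC D3 replicate 2 with 10473 genes and mTEC D3 replicate 1 with 11975, and the comparison of the cell types, the late comparison, the spread and the correlations are also given without them, an alternative added after the data were seen.

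The promoters of the heavy chains, of beta-2 microglobulin and of *Tap1* are shown because the genes that share their sequence elements can be set beside those whose levels moved alike. Each window is the 250 bases before the start of the gene in RefSeq (GRCm38.p6). It is printed 5′ to 3′ on the strand of the gene, and capitals mark 5 short motifs, searched on both strands: the interferon regulatory factor core GAANNGAAA, the interferon-stimulated response element, which has 1 more A before the NN of that core and can overlap it, the NF-kB site GGGATTCCC, the cAMP response element half-site TGACG, and the CCAAT box, which reads ATTGG on the opposite strand. The letters, and the spacing between TGACG and ATTGG given below, were chosen after these windows had been read.
H2-K1, chr17:34000348-34000597, minus strand: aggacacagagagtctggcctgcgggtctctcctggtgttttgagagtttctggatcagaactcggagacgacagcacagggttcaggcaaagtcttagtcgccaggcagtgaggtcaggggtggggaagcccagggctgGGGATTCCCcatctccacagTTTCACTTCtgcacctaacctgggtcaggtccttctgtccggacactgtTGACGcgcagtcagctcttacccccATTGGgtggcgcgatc
H2-D1, chr17:35262844-35263093, plus strand: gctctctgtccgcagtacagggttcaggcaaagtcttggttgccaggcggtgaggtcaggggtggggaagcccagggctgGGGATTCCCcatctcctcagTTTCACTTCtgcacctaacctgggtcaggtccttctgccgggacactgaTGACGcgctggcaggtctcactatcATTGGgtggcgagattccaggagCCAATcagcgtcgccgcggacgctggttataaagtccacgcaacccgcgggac
B2m, chr2:122147437-122147686, plus strand: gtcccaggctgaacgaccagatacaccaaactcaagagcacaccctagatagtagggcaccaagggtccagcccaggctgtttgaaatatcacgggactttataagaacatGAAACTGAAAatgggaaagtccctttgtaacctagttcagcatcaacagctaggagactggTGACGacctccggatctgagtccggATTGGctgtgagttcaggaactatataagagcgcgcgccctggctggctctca
Tap1, chr17:34187306-34187555, plus strand: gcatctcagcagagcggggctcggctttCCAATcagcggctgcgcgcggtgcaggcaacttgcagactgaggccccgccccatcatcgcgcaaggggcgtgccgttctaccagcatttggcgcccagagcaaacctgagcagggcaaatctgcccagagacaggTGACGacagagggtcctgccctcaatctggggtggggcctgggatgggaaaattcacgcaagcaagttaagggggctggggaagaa
Of the 10 genes, 8 had an entry, and *Tap2* and *Nlrc5* are named only. *H2-K1*, *H2-D1* and *B2m* held TGACG followed by ATTGG with 25 bases from start to start, a pair found in 25 of 27025 promoters (0.0925%). As the pair and its spacing were chosen with these windows read, that share does not measure how unusual the pair is in them. *Tap1* held both motifs but not in that arrangement. The NF-kB letters were found in *H2-K1* and *H2-D1* alone among the 8, and in 0.311% of all promoters. The interferon regulatory factor core was also found in these 2 genes alone, and in 6.34% of all promoters. The interferon-stimulated response element was found in *B2m* alone among the 8, and in 3.04% of all promoters. TGACG was in 17.9% of promoters and CCAAT in 34.5%. In the best local alignment of their 250-base windows, *H2-K1* and *H2-D1* had 161 of 177 aligned bases identical (91.0%). The bases outside that stretch were not scored. In the best local alignment of their longest coding transcripts, 1332 of 1475 aligned bases were identical (90.3%). Such matches are letters in a window and show no bound factor.

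The light chain and the heavy chains were the most abundant members. *B2m*, the light chain shared by all class I molecules, lies on chromosome 2 (122147686 to 122153083, plus strand, GRCm38). It had the highest level, with 3921 ± 605 FPKM in cTECs and 5206 ± 452 in mTECs (mean ± SD, n = 28 each). *H2-K1* (chromosome 17, 33996017 to 34000347, minus strand) and *H2-D1* (chromosome 17, 35262730 to 35267499, plus strand) encode the classical heavy chains. They followed with 1660.4 ± 229 and 1177 ± 164 FPKM in cTECs, and 1868 ± 239 and 1343 ± 147 in mTECs. In all 28 samples of each cell type, *B2m* stood above *H2-K1*, *H2-K1* above *H2-D1*, and *H2-D1* above *Calr*. Because *H2-K1* and *H2-D1* are near copies, the split of reads between them is uncertain, although the posterior SD that the authors' RSEM gave was at most 0.123% of the count of *H2-D1* and 0.0506% of that of *H2-K1*.

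The loading machinery lay lower. *Calr*, calreticulin, a chaperone that holds the new heavy chain, had 538 ± 66.7 FPKM in cTECs and 714 ± 136 in mTECs. *Pdia3*, the disulfide isomerase of the loading complex, had 246 ± 36.8 and 248 ± 41.7. *Tapbp*, tapasin, which bridges the heavy chain and the transporter, had 222 ± 49.4 and 189 ± 41.7. *Pdia3* stood above *Tapbp* in 19 of 28 cTEC and 25 of 28 mTEC samples, so that these neighbours were not separated in every sample. *Tap1* and *Tap2* encode the subunits of the peptide transporter and lie close to each other on chromosome 17 (34187553 to 34197225 and 34203527 to 34216321, both plus strand). *Tap1* had 129.7 ± 19.6 FPKM in cTECs and 109.8 ± 13.7 in mTECs, and *Tap2* 100.5 ± 21.8 and 67.6 ± 11.3. *Tap1* stood above *Tap2* in 27 of 28 samples of each cell type.

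*Erap1*, the aminopeptidase that trims peptides in the endoplasmic reticulum, and *Nlrc5*, the transactivator of class I genes, had the lowest levels. *Erap1* had 31.1 ± 5.77 FPKM in cTECs and 25.5 ± 3.49 in mTECs, and *Nlrc5* 19.9 ± 10.1 and 27.7 ± 14.7. *Erap1* stood above *Nlrc5* in 25 of 28 cTEC samples, whereas in mTECs *Nlrc5* stood above *Erap1* in 14 of 28. The SD of *Nlrc5* was 51.0% of its mean in cTECs and 52.9% in mTECs, against 8.69% to 22.2% for the other 9 genes.

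**Figure D1:**
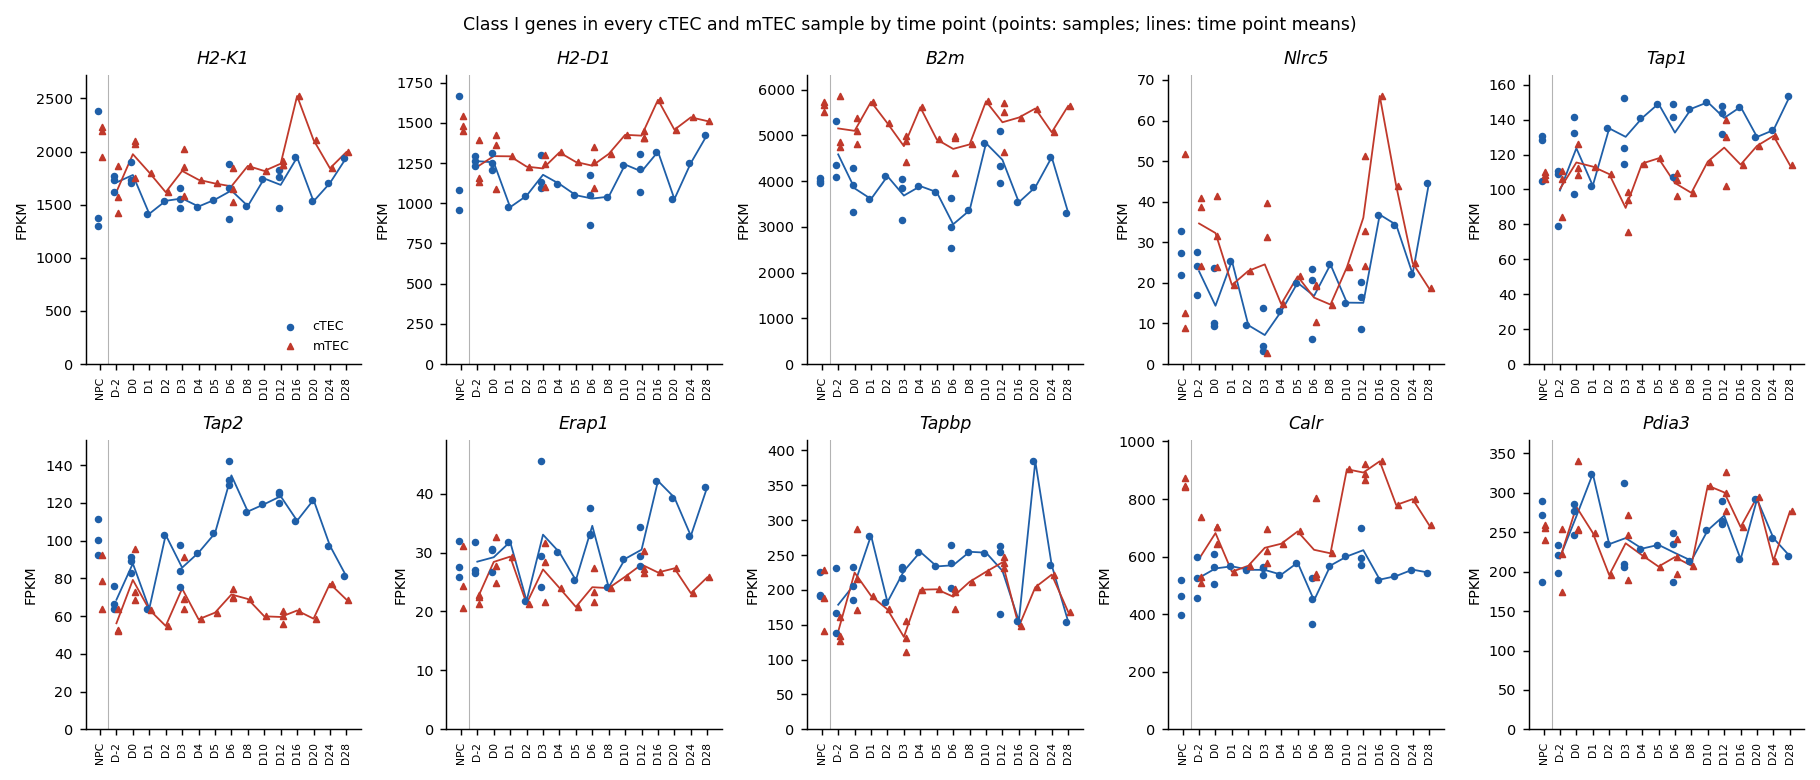
FPKM (linear axis from 0) of the 10 genes in each of 56 samples, by time point, with cTECs as blue circles and mTECs as red triangles. Lines join the means of the time points from D-2 on. The *B2m* mean is higher in mTECs at all 16 time points and the *Tap2* mean higher in cTECs at all 16.

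Between cTECs and mTECs, the class I genes differed in both directions. The heavy chains, the light chain, *Calr* and *Nlrc5* were higher in mTECs, and the transporter subunits, *Erap1* and *Tapbp* were higher in cTECs. The differences were small: none of the 10 genes passed a fold of 2 with an adjusted p of at most 0.01, which 21.2% of 18394 genes did (limma-voom, Benjamini-Hochberg, all 56 samples, time point as a covariate). When no fold was asked for and the adjusted p had to be 0.05 or less, 9 of the 10 genes differed, and so did 50.0% of all genes. Higher in cTECs were 4 of the 10, against 21.7% of all genes, and lower in cTECs 5 of the 10, against 28.4%.

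Among the genes that were higher in mTECs, *B2m* ranged from 4181 to 5864 FPKM in mTECs (median 5187) and from 2548 to 5315 in cTECs (median 3933). The ranges overlapped, but the mean of mTECs was higher at 16 of 16 time points, and the log2 difference (cTEC minus mTEC) was -0.44 ± 0.04 (SE, adjusted p = 7.8e-12). *Calr* ranged from 509 to 931 FPKM in mTECs (median 701) and from 365 to 699 in cTECs (median 549), a difference of -0.40 ± 0.05 (adjusted p = 6.74e-09), with mTECs higher at 15 of 16 time points. *H2-D1* (median 1355 against 1189 FPKM) and *H2-K1* (median 1859 against 1658) also had the higher mean in mTECs at 15 of 16 time points, the exception being D-2 for both. Their differences were -0.25 ± 0.04 (adjusted p = 1.76e-06) and -0.21 ± 0.04 (adjusted p = 4.23e-05). *Nlrc5* had a difference of -0.62 ± 0.12 (adjusted p = 3.62e-05), the largest in size of the 10, but its mean was higher in mTECs at only 11 of 16 time points. On log2(FPKM + 0.5) with limma-trend, that difference was -0.46 with an adjusted p of 0.0732, which missed the threshold.

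Among the genes that were higher in cTECs, *Tap2* stood out. It ranged from 63.8 to 142 FPKM in cTECs (median 98.9) and from 52.2 to 95.7 in mTECs (median 63.6). The mean of cTECs was higher at all 16 time points, from 1.01 times at D1 to 2.07 times at D20, and the log2 difference was 0.56 ± 0.06 (adjusted p = 8.94e-11). *Tap1* ranged from 79.1 to 154 FPKM in cTECs (median 133) and from 75.8 to 139.8 in mTECs (median 109.8), a difference of 0.25 ± 0.05 (adjusted p = 3.36e-05), with cTECs higher at 14 of 16 time points. *Erap1* differed by 0.25 ± 0.05 (adjusted p = 3.41e-05) and was higher in cTECs at all 16. *Tapbp* differed by 0.15 ± 0.06 (adjusted p = 0.0344) and was higher in cTECs at 13 of 16, but missed 0.05 with DESeq2 (0.224) and in the replicated time points alone (0.178). Of 36 fits with 1 library left out, 27 kept *Tapbp* under 0.05. The others, with adjusted p-values up to 0.144, were without mTEC D-2 replicate 2 or 3, D0 replicate 3, D6 replicate 3, D12 replicate 1 or 3 or NPC replicate 1, or without cTEC D-2 replicate 2 or D3 replicate 1. *Pdia3* had a difference of -0.04 ± 0.04 (adjusted p = 0.432, and -0.11 with 0.0419 in DESeq2).

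Without the 2 libraries with the fewest genes, 9 of the 10 genes again passed an adjusted p of 0.05, with *Tap2* at 0.60 and *B2m* at -0.39. Without the filter on low values, the differences of *H2-K1* (0.16), *H2-D1* (0.0138) and *Tapbp* (-0.22) had the opposite sign, in a fit where 1 of the 56 libraries held 89.4%, 27.7% and 62% of the gene's weight, against 2.22% to 4.93% with the filter. The macrophage and dendritic cell markers, whose cells also carry class I molecules, were higher in mTECs (mean sum 92.3 FPKM against 20.8). The thymocyte markers went the other way. Of these 20, 13 were called higher in cTECs and 0 lower, where 864 of 18394 genes were called higher. The part of either set of markers in the differences of class I genes, in both directions, was not tested.

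**Figure D2:**
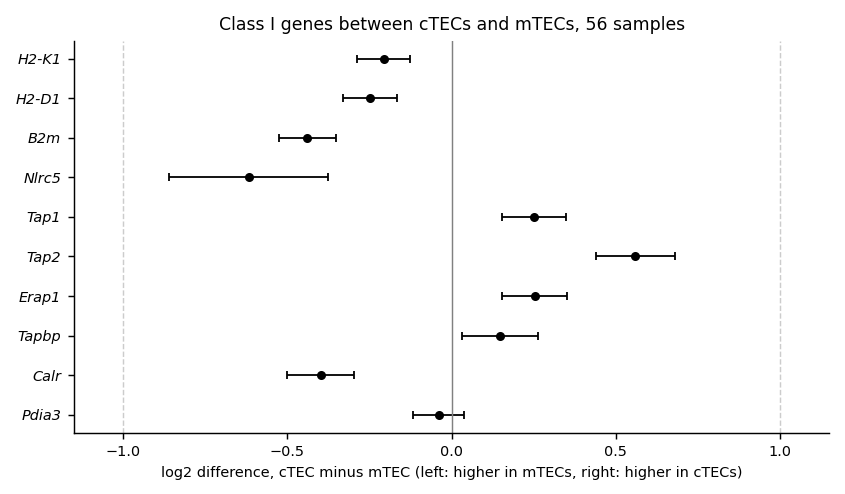
Log2 difference between cTECs and mTECs for the 10 genes over 56 samples (points: limma-voom estimates; bars: 95% intervals from the standard error). Left of 0 is higher in mTECs, and dashed lines mark a fold of 2, which no gene reaches; *Tap2* is farthest right at 0.56 and *Nlrc5* farthest left at -0.62.

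Other genes of the pathway split between the cell types too. Of 13 genes that supply peptides, 4 were higher and 6 lower in cTECs at an adjusted p of 0.05, with a median difference of -0.14 (-0.03 over all genes). *Psmb9*, a catalytic subunit of the immunoproteasome, was higher in cTECs by 1.02 ± 0.07 and *Psme1*, a subunit of the proteasome activator PA28, lower by 1.21 ± 0.08 (-1.21), the only ones of the list past a fold of 2 with an adjusted p of at most 0.01. *Psmb10*, a further immunoproteasome subunit, was higher in cTECs by 0.60 ± 0.10. Of 20 chaperones of the endoplasmic reticulum, 14 were lower in cTECs and 2 higher, with a median of -0.28. *Hsp90b1*, which encodes the chaperone GRP94, had -0.64 ± 0.06, and *Hyou1*, a further chaperone of the endoplasmic reticulum, had -0.66 ± 0.11. *Calr* was therefore not alone among the chaperones in being higher in mTECs. Of 16 other class I heavy chains, 8 were lower in cTECs and 2 higher (median -0.31). Among the lower ones, *H2-M2* at -1.67 ± 0.10, *H2-Q1* at -2.36 ± 0.65 and *H2-T3* at -1.76 ± 0.58 were all 3 called past the fold of 2. Only 14 of the 16 were tested in the fits of cTECs alone, against 16 in those of mTECs. The rest passed the filter on low values through mTECs alone, which favours a lower value in cTECs. Their direction is therefore no separate result. Whether any of the 3 called genes was among them is not given here. Of 13 transcription factors of class I genes, 5 were higher in cTECs, 2 lower and none past the fold of 2: *Irf1*, an interferon-induced activator, had 0.91 ± 0.13 and *Relb*, a subunit of NF-kB, -0.72 ± 0.06. Of 27 interferon-stimulated genes, 12 were higher in cTECs and 5 lower (median 0.07), and *Cxcl9*, a chemokine, was the only one called, at -3.67 ± 0.22.

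Late pregnancy was compared with NPC to ask what gestation does to the epithelium. No class I gene passed either threshold, with limma-voom, edgeR or, at the fold of 2, DESeq2, and at an unadjusted p under 0.05 there was 1 in cTECs (*Tap2*) and 0 in mTECs, where 1569 of 15675 and 2251 of 17592 genes had one. In cTECs 0.0319% of 15675 genes passed the fold of 2 with an adjusted p of 0.01, and 0.223% an adjusted p of 0.05 alone. In mTECs these shares were 0% and 0.0682% of 17592 genes, so that few genes of any kind were called with 3 mice against 3. The median log2 fold change over all genes was 0.04 in cTECs and 0.16 in mTECs. *Tap2* in cTECs was the nearest, with 92.4, 100.1 and 112 FPKM in NPC and 63.8, 75.8 and 66.4 at D-2. The groups did not overlap, and the log2 fold change was -0.58 ± 0.16 (adjusted p = 0.292, and 0.0161 with DESeq2). Here and below, the share of all genes whose groups do not overlap was not counted. A lack of overlap therefore only describes the values and is no sign of a change. In mTECs, *Tap2* had 92.3, 78.8 and 63.5 FPKM in NPC and 52.6, 52.2 and 63.7 at D-2, which overlapped. *Calr* in mTECs had 845, 842 and 874 FPKM in NPC against 509, 738 and 529.9 at D-2, without overlap, a log2 fold change of -0.42 ± 0.19 (adjusted p = 0.394). The heavy chains did not overlap in mTECs either. *H2-K1* had 1949, 2198 and 2231 FPKM in NPC and 1423, 1573 and 1865 at D-2 (-0.33 ± 0.20, adjusted p = 0.492). *H2-D1* had 1479, 1545 and 1448 FPKM in NPC and 1132, 1157 and 1392 at D-2 (-0.19 ± 0.21, adjusted p = 0.729). *B2m* in cTECs had 4014, 4079 and 3955 FPKM in NPC against 4349, 4095 and 5315 at D-2, again without overlap, and a log2 fold change of 0.22 ± 0.17 (adjusted p = 0.676). No gene of the 5 pathway lists passed an adjusted p of 0.05 in either cell type. In cTECs, all 8 cTEC markers had lower values at D-2, with 3 at an adjusted p of 0.05 and sums of 5234 to 7713 FPKM in NPC and 1485 to 2504 at D-2. Of the 20 thymocyte markers, 18 had lower values and none passed, with sums of 73.2 to 399 and 50.9 to 64.0 FPKM. The part of these markers in the values of *Tap2* and *B2m* was not tested.

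From D-2 to D6, when the thymus begins to grow again, *Tap2* was the class I gene that differed most in cTECs. It had 63.8, 75.8 and 66.4 FPKM at D-2 and 132, 129 and 142 at D6, so that every D6 sample stood above every D-2 sample. The log2 fold change was 0.96 ± 0.15 (adjusted p = 0.0041), a fold of 1.95, which lies just under the threshold of 2. None of the 10 genes was therefore called at that threshold, which 1.84% of 15688 genes passed, and *Tap2* alone passed an adjusted p of 0.05, as did 6.36% of all genes. Its fold change stayed between 0.94 and 1.00 under all 15 alternatives, with adjusted p-values of 1.1e-08 to 0.0331.

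The other class I genes moved less in cTECs, and not all in one direction. *Tap1* had 79.1, 109 and 110.6 FPKM at D-2 and 107, 142 and 149 at D6, a log2 fold change of 0.45 ± 0.16 (adjusted p = 0.128). *Tapbp* had 0.53 ± 0.22 (adjusted p = 0.178) and *Erap1*, whose groups did not overlap, 0.25 ± 0.17 (adjusted p = 0.394). *B2m* had the lower values at D6, with 4349, 4095 and 5315 FPKM at D-2 and 2988, 3636 and 2548 at D6, which did not overlap. Its log2 fold change was -0.64 ± 0.19 (adjusted p = 0.0784), and it passed 0.05 with DESeq2 (0.0106), without the filter on low values (0.0243) and in a fit of all 28 samples (0.0349). *H2-D1* had 1231, 1260.2 and 1294 FPKM at D-2 and 862, 1053 and 1173 at D6, likewise without overlap, at -0.41 ± 0.16 (adjusted p = 0.155, and 0.0333 with DESeq2). *H2-K1* had 1771, 1733 and 1623 FPKM at D-2 and 1362, 1659 and 1879.9 at D6 (-0.12 ± 0.16, adjusted p = 0.712). *Calr* was at -0.40 ± 0.19 (adjusted p = 0.236), *Nlrc5* at -0.10 ± 0.26 (adjusted p = 0.871) and *Pdia3* at -0.09 ± 0.18 (adjusted p = 0.804).

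In mTECs, no class I gene passed a threshold between D-2 and D6, where 0.302% of 17536 genes were called at a fold of 2 and 2.27% at an adjusted p of 0.05. At an unadjusted p under 0.05 there were 2, *Tapbp* and *Nlrc5*, against 20.3% of all genes. *Tap2* had 52.6, 52.2 and 63.7 FPKM at D-2 and 69.7, 74.3 and 70.2 at D6. These groups did not overlap either, at a log2 fold change of 0.33 ± 0.17 (adjusted p = 0.295). *Tapbp* had 126, 134 and 160.5 FPKM at D-2 and 201, 172 and 197 at D6 (0.48 ± 0.16, adjusted p = 0.134, and 0.0476 with DESeq2). *Nlrc5* had 38.7, 41.0 and 24.2 FPKM at D-2 and 19.5, 19.3 and 10.3 at D6, lower in all 3 samples (-0.61 ± 0.21, adjusted p = 0.147, and 0.0372 with DESeq2). *B2m* had -0.11 ± 0.15 (adjusted p = 0.704) and *H2-D1* 0.04 ± 0.15 (adjusted p = 0.917).

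Whether the change from D-2 to D6 differed between the cell types was tested as an interaction over the 12 samples. No class I gene passed, against 0.0055% of 18189 genes at the fold of 2 and 0.0825% at an adjusted p of 0.05. At an unadjusted p under 0.05 there were 3, against 11.9% of all genes, and the median over all genes was -0.13. The change of *Tap2* was 0.63 ± 0.22 higher in cTECs on the log2 scale (adjusted p = 0.266, and 0.0337 with DESeq2). The difference was -0.51 ± 0.23 for *B2m* (adjusted p = 0.398) and -0.57 ± 0.25 for *Calr* (adjusted p = 0.378).

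**Figure D3:**
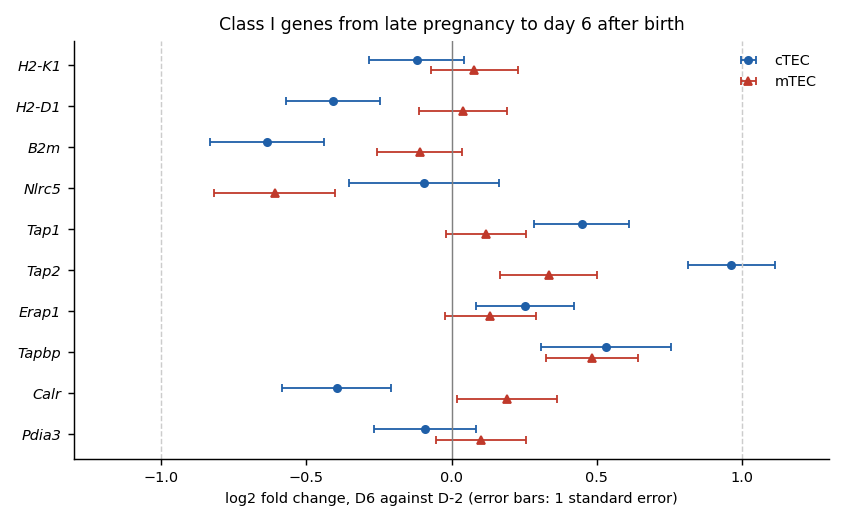
Log2 fold change from D-2 to D6 of the 10 genes in cTECs (blue circles) and mTECs (red triangles), 3 samples against 3 in each (bars: 1 standard error; dashed lines: a fold of 2). *Tap2* in cTECs, at 0.96, is the value farthest from 0 and lies just inside the dashed line.

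Between the same time points, genes that supply peptides and interferon-stimulated genes differed too. Of the 13 peptide supply genes in cTECs, 1 was called at the fold of 2 and 3 passed an adjusted p of 0.05. *Psmb10* had 198, 176 and 219.9 FPKM at D-2 and 826, 818 and 491 at D6, and rose by 1.68 ± 0.20 on the log2 scale (adjusted p = 0.000808). *Psmb9* had 207, 132 and 184 FPKM at D-2 and 387, 390.4 and 306 at D6 (0.95 ± 0.17, adjusted p = 0.0087), which, like *Tap2*, falls just under a fold of 2 and missed an adjusted p of 0.05 without D-2 replicate 2 (0.0619). *Psme1* had 185, 122 and 116 FPKM at D-2 and 58.6, 84.9 and 68.2 at D6 (-0.80 ± 0.16, adjusted p = 0.0162), and passed 0.05 in 4 of 6 fits with 1 library left out, against 6 of 6 for *Psmb10*. *Psmb8*, the remaining catalytic subunit of the immunoproteasome, named after its values were seen, had -0.39 ± 0.24 (adjusted p = 0.35). *Psmb11*, which the study names with *Psmb9* and *Psmb10*, was listed here with the cTEC markers and not with the 13. It is also named after its values were seen. In cTECs it rose by 3.67 on the log2 scale (adjusted p = 0.000142) and was called in 6 of 6 fits with 1 library left out. In mTECs it rose by 2.98 (adjusted p = 0.0167). In mTECs, 2 of the 13 passed an adjusted p of 0.05: *Psmb10* at 1.12 ± 0.17 (adjusted p = 0.011) and *Npepps*, a cytosolic aminopeptidase, at -0.81 ± 0.15 (adjusted p = 0.0224). With 1 library left out, *Psmb10* passed in 6 of 6 fits and *Npepps* in 1 of 6. *Psmb9* and *Tap1* lie head to head and overlap at their starts, and the reads of that stretch cannot be told apart if strand was not used in counting, which the sources used here do not state.

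**Figure D4:**
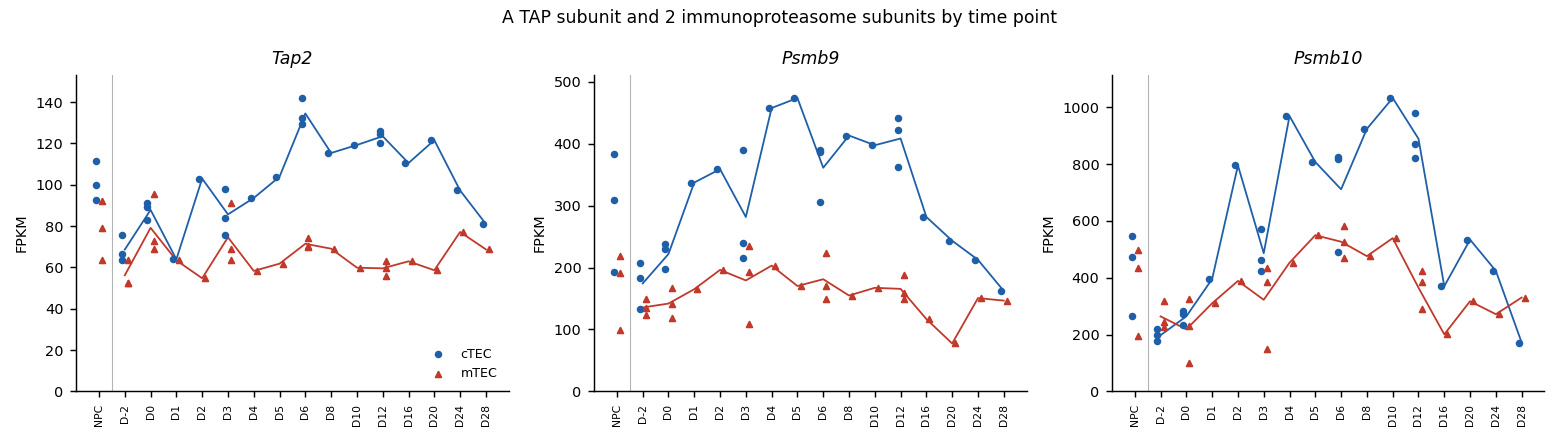
FPKM (linear axis from 0) of *Tap2*, *Psmb9* and *Psmb10* in every cTEC (blue circles) and mTEC (red triangles) sample, with lines through the means of the time points from D-2 on. In cTECs all 3 D6 samples of each gene lie above all 3 D-2 samples.

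Of the 27 interferon-stimulated genes, 3 fell past a fold of 2 in cTECs from D-2 to D6, 7 were lower at an adjusted p of 0.05 and none higher, with a median of -0.62 (-0.02 over all genes). *Ifit1* fell by 1.37 ± 0.20 on the log2 scale (adjusted p = 0.00292), *Irf7*, a regulator of the interferon response, by 1.34 ± 0.24 (adjusted p = 0.00882) and *Isg15*, a ubiquitin-like modifier, by 1.01 ± 0.19 (adjusted p = 0.00959). All 3 stayed under an adjusted p of 0.05 in the 6 fits with 1 library left out, but past both thresholds only in 3 (*Ifit1*), 2 (*Irf7*) and 1 (*Isg15*). In mTECs, 2 were lower at an adjusted p of 0.05 and none higher (median -0.33): *Ifit1*, named after its values were seen, at -0.88 ± 0.19 and *Gbp7* at -1.22 ± 0.23, which passed in 1 and 2 of 6 fits with 1 library left out. Of the other heavy chains in cTECs, 2 of 14 tested were lower at an adjusted p of 0.05 and none higher (median -0.45): *Fcgrt*, the neonatal Fc receptor, at -1.17 ± 0.26 and *H2-T23* at -0.71 ± 0.16, which passed in 3 and 1 of 6 such fits. In mTECs none of 16 passed (median -0.21). No transcription factor of the 13 and no chaperone of the 20 passed an adjusted p of 0.05 in either cell type.

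Sums of cell type markers moved between these time points as well, by a change in cells or in RNA per cell, which bulk samples cannot tell apart. In cTECs the thymocyte markers summed to 50.9 to 64.0 FPKM at D-2 and 178 to 227 at D6, the fibroblast markers to 282 to 371 and 106 to 157, and the cTEC markers to 1485 to 2504 and 10175 to 11355. Of the 5 fibroblast markers tested there, 4 had lower values at D6 and 1 higher, and only *Dcn* passed an adjusted p of 0.05. The 9 mTEC markers, summed to 5821 to 8124 FPKM at D-2 and 3662 to 4261 at D6, all had lower values in cTECs at D6 (median -1.16), 5 of them at an adjusted p of 0.05. In mTECs the thymocyte sums were 53.5 to 74.5 and 76.3 to 103 FPKM, and those of macrophages and dendritic cells 68.4 to 107 and 23.4 to 65.1. The part of these shifts in the changes of class I genes was not tested.

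Over the 6 replicated time points, an F test asked whether any time point stood apart. In cTECs, *Tap2* was called at the 0.01 level (adjusted p = 0.000617), as were 1.18% of 15822 genes, and it was again the only one of the 10 at 0.05, where 2.59% of genes passed. The call held under all 26 alternatives (adjusted p 2e-16 to 0.00593). *Tap2* is a gene whose mice were unusually close to each other: the SD within time points was 0.12 on the log2(FPKM + 0.5) scale, at percentile 0.308 of the 10068 cTEC genes whose mean reached 5 FPKM, while its time point means spanned 0.97. The cTEC means ran from 68.6 ± 6.30 FPKM at D-2 (n = 3) to 135 ± 6.62 at D6, and were 123 ± 2.98 at D12, with single samples of 115 at D8 and 119 at D10. The 4 late samples had 110.5, 122, 97.3 and 81.0 FPKM in the order of their days, lowest at D28.

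In mTECs no class I gene passed an adjusted p of 0.01 in the F test, which 0.959% of 17720 genes did. *Calr* passed 0.05 (adjusted p = 0.0204), as did 5.09% of genes. Its samples were 845, 842 and 874 FPKM in NPC, 509, 738 and 529.9 at D-2, 642, 702 and 701 at D0, 696, 618 and 578 at D3, 802, 529 and 539.6 at D6, and 886, 923 and 867 at D12. NPC and D12 were thus higher than all other replicated time points in every sample. The adjusted p was 0.19 with the edgeR quasi-likelihood test and 0.235 with limma-trend, and 0.00223 with DESeq2, and when 1 library was left out it lay between 0.00581 and 0.0845, under 0.05 in 11 of 18 cases. The others were each D12 sample, D-2 replicate 1, D3 replicate 1 or 3 and NPC replicate 2. *Tapbp* had an adjusted p of 0.0503, with its highest mean at D12 (239.5 FPKM) and its lowest at D3 (133).

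Of the 10 genes, 9 varied little between mice of a time point and *Nlrc5* varied much. The SD within time points of the 9 was 0.12 to 0.25 on the log2 scale in both cell types, below the median of all genes (0.44 in cTECs and 0.51 in mTECs). That of *Nlrc5* was 0.73 in cTECs and 1.04 in mTECs, higher than in 76.9% and 85.2% of genes. The means of the time points spanned 2.10 for *Nlrc5* in cTECs, from 27.3 ± 5.45 FPKM in NPC (n = 3) to 7.14 ± 5.74 at D3, and the F test gave an adjusted p of 0.328. Without the 2 libraries with the fewest genes, its SD was 0.70 in cTECs and 0.69 in mTECs, higher than in 91.3% and 77.6% of genes, the range in cTECs was 1.70 and the SDs of the other 9 genes were 0.10 to 0.26. *Nlrc5* also had the fewest reads, from 47 to 8151 expected counts per sample, and the 3 lowest counts were those of cTEC D3 replicate 3, mTEC D3 replicate 1 and cTEC D3 replicate 2.

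**Figure D5:**
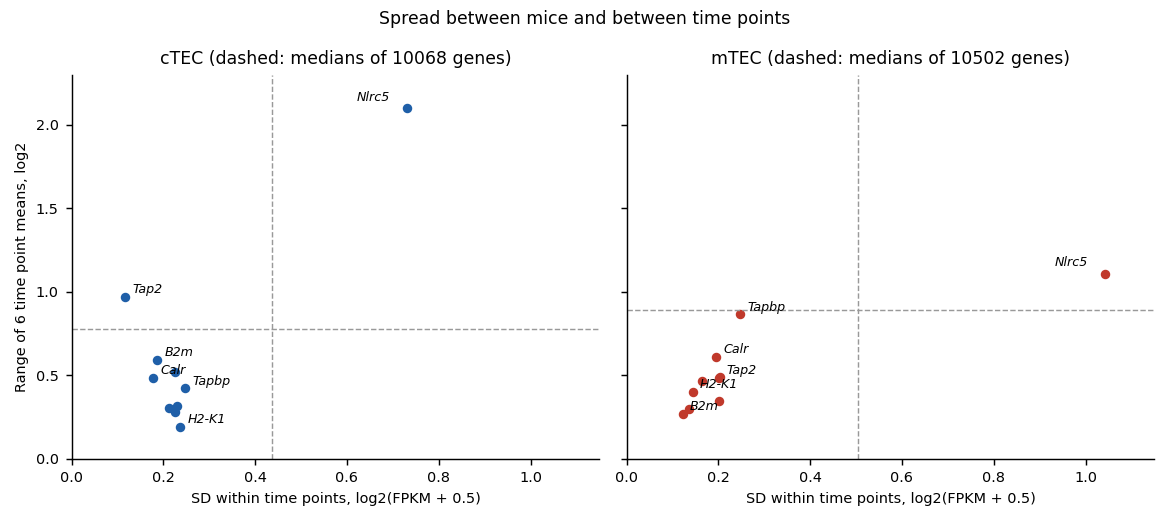
SD within time points (x, log2(FPKM + 0.5) scale) against the range of the 6 replicated time point means (y, log2) for the 10 genes in cTECs (left) and mTECs (right), with dashed lines at the medians of all genes whose mean reached 5 FPKM. *Nlrc5* lies far right in both, and *Tap2* in cTECs combines the smallest SD (0.12) with a range of 0.97.

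Late was compared with early regeneration, with 4 against 18 samples. The late time points had 1 sample each, so that phase and day cannot be told apart. No class I gene passed a threshold, and at an unadjusted p under 0.05 there were 2 in cTECs (*Nlrc5* and *Erap1*) and 1 in mTECs (*Nlrc5*), where 4308 of 15833 and 3538 of 17725 genes had one. In cTECs 1.41% of 15833 genes passed the fold of 2 and 10.7% an adjusted p of 0.05, and in mTECs these shares were 0.0621% and 1.96% of 17725 genes. *Nlrc5* had the highest late values. In cTECs the late samples, in the order of their days, had 36.8, 34.3, 22.2 and 44.7 FPKM, against 3.20 to 25.4 in the early samples (median 14.4), so that 3 of the 4 late samples stood above all 18 early ones. The log2 fold change was 0.72 ± 0.25 (adjusted p = 0.0609). It was 1.12 without the D20 sample (adjusted p = 0.0064, called), 0.35 without D28 (adjusted p = 0.462), and 1.34 with limma-trend on log2(FPKM + 0.5) (adjusted p = 0.0924). An adjusted p of 0.05 was passed with DESeq2 (0.0439), with sample quality weights (0.000176) and without TMM (0.0418). In mTECs the late samples had 66.1, 44.0, 24.9 and 18.6 FPKM and the early ones 2.83 to 51.2 (median 23.4), at 0.72 ± 0.21 (adjusted p = 0.0569) and 0.47 without D16 (adjusted p = 0.301). *Nlrc5* passed 0.05 there without TMM (0.0361) and without the filter (0.00334). Without D3 replicate 2 in cTECs and D3 replicate 1 in mTECs, the libraries with the fewest genes, *Nlrc5* had 0.73 (adjusted p = 0.0593) and 0.69 (adjusted p = 0.0563).

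*Erap1* in cTECs had 42.1, 39.3, 32.8 and 41.1 FPKM in the late samples against 21.8 to 45.5 early (median 29.7), at 0.30 ± 0.12 (adjusted p = 0.0924). It passed 0.05 with sample quality weights (0.00527), without the filter (0.0188), without TMM (0.0424) and without D3 replicate 2 (0.0481). *H2-D1* in mTECs had 1643, 1457, 1534 and 1511 FPKM late and 1091 to 1449.6 early, which did not overlap, at 0.15 ± 0.08 (adjusted p = 0.335). Of the 27 interferon-stimulated genes in cTECs, 3 were called, all higher late, and 9 were higher and 1 lower at an adjusted p of 0.05 (median 0.34, and -0.04 over all genes). The called genes were *Mx1* (2.23 ± 0.48), *Gbp4* (1.26 ± 0.24) and *Ifit3* (1.19 ± 0.22). Without D28 none of these 3 was called, with adjusted p-values of 0.0318, 0.0363 and 0.0218. In mTECs, *Mx1* (1.68 ± 0.38) and *Stat2* (0.78 ± 0.18) passed 0.05, with a median of 0.07, but not without D16 (0.112 and 0.118). Of the peptide supply genes, *Psmb9* (-0.69 ± 0.20) and *Sec61b*, a subunit of the endoplasmic reticulum channel (-0.96 ± 0.27), were lower late in cTECs at an adjusted p of 0.05, and none passed in mTECs. *Sec61b* had 67.9, 14.5, 58.7 and 72.9 FPKM in the order of the days, and without D20 its difference was -0.29 (adjusted p = 0.297). Of the other heavy chains, *H2-Q10* (1.14 ± 0.32) was higher in cTECs and *H2-T10* (1.11 ± 0.20) in mTECs at that level. Of the transcription factors, *Nfyc* (-1.21 ± 0.34) and *Relb* (-0.47 ± 0.13) were lower in cTECs, and *Nfyc* had -0.21 without D20 (adjusted p = 0.428). Of the chaperones, *Canx* (0.55 ± 0.16), which encodes calnexin and was named after its values were seen, was higher and *Xbp1* (-0.59 ± 0.19) lower in cTECs. Without D28, *Psmb9*, *H2-Q10*, *Relb*, *Canx* and *Xbp1* missed 0.05 in cTECs, with adjusted p-values of 0.141, 0.146, 0.127, 0.183 and 0.276.

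Markers of cell types also moved between the phases. In cTECs, 5 of 5 tested fibroblast markers had higher values late, 4 at an adjusted p of 0.05, with sums of 292 to 676 FPKM late and 68.6 to 355 early. Of the 9 mTEC markers, 7 had higher values in late cTECs and 4 passed 0.05 (median 0.79), although their sums overlapped (4451 to 7331 FPKM late and 3662 to 7978 early). In mTECs, 10 of 11 tested macrophage and dendritic cell markers had higher values late (median 1.31), 2 at 0.05, with sums of 91.9 to 239.9 FPKM late and 23.4 to 147 early. The part of these markers in the late values of *Nlrc5*, *Erap1* and *H2-D1* was not tested.

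As *Nlrc5* switches on class I genes, its level was set against that of the other 9 members across the 28 samples of each cell type. None of the 18 relations passed an adjusted p of 0.05 (permutation test of Pearson's r, 100000 resamples, two-sided), and 1 had an unadjusted p under 0.05. This was *Erap1* in mTECs, with r = 0.43 (permutation p = 0.0191, adjusted p = 0.344) and rho = 0.42 (permutation p = 0.0258, adjusted p = 0.374), r = 0.39 without the 2 samples farthest from the median, and r = 0.64 within time points (18 samples). For *H2-K1*, r was 0.19 in cTECs and 0.32 in mTECs, with 0.21 and 0.04 without those 2 samples and 0.10 and 0.32 within time points. For *H2-D1*, r was 0.16 and 0.20, for *B2m* 0.08 and -0.03, for *Tap1* 0.16 and 0.14, and for *Tap2* -0.04 and -0.21. *Tapbp* had -0.20 and -0.01, *Calr* -0.32 and 0.19, and *Pdia3* -0.20 and 0.14. Within time points, *Tap1* in cTECs had r = 0.60, *Erap1* -0.55 and *Calr* -0.48, against 0.16, 0.00 and -0.32 over all samples. Without the 2 libraries with the fewest genes, *Erap1* had r = 0.38 in mTECs and 0.27 in cTECs, and *H2-K1* 0.21 and 0.22.

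The heavy chains followed each other instead. By Pearson's r of log2(FPKM + 0.5), *H2-D1* was the gene most like *H2-K1* in cTECs (r = 0.90, 1st of 10065 genes whose mean reached 5 FPKM) and the 2nd in mTECs (r = 0.82, of 10499). These are the 2 genes whose promoters share the NF-kB and interferon regulatory factor letters printed above, and also the 2 whose reads are hardest to tell apart. *B2m*, whose promoter shares the TGACG and ATTGG pair with them and holds the interferon-stimulated response element in place of the shorter core, had r = 0.05 with *H2-K1* in cTECs and 0.40 in mTECs. Of genes outside the 10, *Spint2*, a serine protease inhibitor, was the most like *H2-K1* in cTECs (r = 0.87) and in mTECs (r = 0.85). *Txndc5* (0.77), *Fam193b* (0.75), *Myl12b* (0.75) and *Rnf146* (0.74) followed in cTECs, and *Itga6* (0.78), *Epcam* (0.78), *Trp53* (0.77) and *Pfn1* (0.76) in mTECs. The genes most like *Nlrc5* were *2610005L07Rik* (0.76), *Scyl3* (0.75), *Ifi204* (0.74), *Fas* (0.74) and *Vsnl1* (0.73) in cTECs. In mTECs they were *Yeats2* (0.83), *Wipi2* (0.83), *Myo15b* (0.82), *Trappc13* (0.82) and *Fnbp1* (0.81). Without the 2 libraries with the fewest genes, *H2-D1* kept its place for *H2-K1* (r = 0.91 in cTECs and 0.80 in mTECs), whereas these 10 genes stood at places 11 to 29 for *Nlrc5* in cTECs and 22 to 52 in mTECs. All points of these correlations share library and depth with each other, and they are given as descriptions.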

How the data were processed

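RNA was sequenced from sorted cTECs and mTECs of single mice. Per the study's methods, libraries came from a poly(A) kit, and reads were handled with Trimmomatic 0.35, STAR 2.5.1b (GRCm38) and RSEM. The deposited sample records add bcl2fastq 2.20 and the RSEM version, 1.2.28. The annotation release, and whether strand was used in counting, are not given in the sources used here. The authors deposited, for each sample and gene, the RSEM expected counts, TPM and FPKM, and a posterior SD of the count. FPKM, scaled by the authors for transcript length and library size, gave the levels. Deposited TPM entered 1 alternative. Of 50600 identifiers, 50376 matched GENCODE M21 symbols.

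Expected counts were rounded and fitted with limma-voom (limma 3.58.1, edgeR 4.0.16 for TMM, R 4.3.3) on genes whose FPKM averaged 0.5 or more in the 28 samples of either cell type compared. Called genes had a fold of 2 or more with a p of 0.01 or less after Benjamini-Hochberg adjustment, and in the F test over 6 time points that p alone decided. The looser rule took an adjusted p of 0.05 or less without a fold threshold. Alternatives used the edgeR quasi-likelihood test, DESeq2 1.42.0, limma-trend on log2(FPKM + 0.5) or log2(FPKM + 0.1), sample quality weights, no TMM, no filter, wider fits and each library left out. Correlations and values were computed in Python 3.11.15 (NumPy 2.4.6, pandas 2.3.3, SciPy 1.17.1). The fits were tested on simulated data.

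All 10 genes are named. From each gene list, the called genes and at most 4 others with large changes are named, and for *H2-K1* and *Nlrc5* the 5 most similar genes. The members and lists were chosen with earlier results of these data known. The depth of *Nlrc5* in the smallest libraries was low, which limits its precision. Same-numbered samples of 2 time points correlated at -0.09 to 0.05 in their deviations from group means, so that replicate numbers were not taken to pair samples.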

Additional observations from a re-analysis of the deposited data

How the results depend on the processing

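Of 42 results, 28 were of single genes and the others were counts. A gene's value was kept if its sign and its side of an adjusted p of 0.05 stayed, and in the F test if that side alone stayed. A count was kept if it was equal or near in ratio, without regard to direction. By these rules, 1007 of 1097 values under an alternative were kept, and 6 changed sign. The cause was not tested for any change. In cTECs from D-2 to D6, the looser rule counted 1 class I gene where the fold of 2 counted 0, and at that rule DESeq2 counted 3, no filter 3 and a fit of all 28 samples 2. In late against early cTECs, sample quality weights counted 1 gene, and leaving out 1 library gave 0 to 1 (1 without D20). In the mTEC time course, where 0 were called, the looser rule and DESeq2 each counted 1 and no filter 4, and leaving out 1 library gave 0 to 1. At the looser rule, where 1 passed, edgeR, quality weights and limma-trend with either pseudocount counted 0, DESeq2 and no TMM 2 and no filter 5, and leaving out 1 library gave 0 to 2. Between cTECs and mTECs the looser rule counted 9. Without the filter, the signs of *H2-K1* (0.16), *H2-D1* (0.0138) and *Tapbp* (-0.22) turned. In unfiltered fits of this comparison and of both time courses, 1 library held 14.5% to 99.6% of a member's weight (at most 10.9% with the filter), so that they say little about stability. *Pdia3* passed 0.05 with DESeq2 (-0.11) and without the filter (-0.18), and lay between -0.0734 and 0.00981 when 1 library was left out, with 0.00182 without cTEC D0 replicate 2, 0.00771 without cTEC D6 replicate 3 and 0.00981 without cTEC NPC replicate 3. With TPM, 1 of the 18 relations of *Nlrc5* passed an adjusted p of 0.05 (*Erap1* in mTECs, r = 0.56).

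Counts of all called genes moved more. Over alternatives in the fit or test, they ran between 95 and 757 for D6 against D-2 in cTECs (289 in the main fit here) and between 2 and 470 in mTECs (53). For this comparison the study gave more genes in both cell types than these main fits, with the same thresholds in its methods. The reason for that gap was not tested. Late against early gave 0 to 1048 in cTECs (224) and 1 to 160 in mTECs (11), and the time courses 78 to 676 (186) and 0 to 875 (170). For D-2 against NPC there were 0 to 96 in cTECs (5) and 0 to 165 in mTECs (0), and for the interaction up to 126 (1). With 1 library left out, D6 against D-2 gave 99 (without D-2 replicate 2) to 344 (D6 replicate 3) in cTECs and 0 (D6 replicate 2) to 23 (D6 replicate 1) in mTECs, late against early 52 (D28) to 439 (D24) in cTECs and 11 to 46 (D28) in mTECs, and the time courses 110 (D-2 replicate 2) to 273 (D3 replicate 2) and 25 (D-2 replicate 1) to 650 (NPC replicate 3). D-2 against NPC gave 0 to 74 (NPC replicate 3) in cTECs and 0 to 25 (NPC replicate 1) in mTECs. The shares of all genes set beside the members rest on these counts. With the replicate block, 0 genes were called in cTECs between NPC and D-2, 253 and 49 between D-2 and D6 in cTECs and mTECs, and 204 and 112 in the time courses. The block changed no count of class I genes: it left 0 called in each pairwise comparison and 1 in the cTEC time course. The numbers were not shown to pair samples. Of cTEC and mTEC samples, pairs with the same replicate number correlated at -0.08 to 0.28, and pairs with the same number in the title at -0.14 to 0.13. The fit of the cell types treated the 56 samples as independent, and whether 1 mouse gave both cell types is not stated. With the title number or the replicate number as a block, the correlation within blocks was -0.05 and -0.02. Either block left 0 class I genes called.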
